A study of Mus musculus with 8 samples.

Results

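Nppa, Nppb, Gja5, Cited1, Cpne5, Smpx, Etv1, Pcp4 and Adm were followed as 9 genes used to mark the trabecular layer of the embryonic ventricle. They were chosen by name, with earlier results of these data known. Of the 9, 8 were found by symbol among the 13869 genes of the deposited table. No identifier in the table matched Pcp4, which is not analysed here. All 8 passed the filter on low values (a mean log2 level of at least 0). RNA sequencing of polyadenylated RNA was done on heart ventricles of mouse embryos at stage E14.5 (E stands for embryonic day). The mutants (Mib1flox; TnT-Cre) carry a floxed allele of Mib1, a ubiquitin ligase gene needed by Notch ligands, and Cre recombinase driven by the cardiac troponin T promoter, which is active in cardiomyocytes. The controls are wild-type (WT) siblings, whose titles read MibWT-TnT. The labels do not say what TnT means in these titles, or whether the controls carry a floxed allele or Cre. For each genotype 16 hearts were pooled into 4 libraries, so a library is a pool and not an embryo. The labels name no litters, so p values speak only to how much these pools varied, which may be technical.

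The inner wall of the embryonic ventricle forms trabeculae, muscular ridges covered by endocardium, while the outer wall forms the compact layer. Notch signalling between myocardium and endocardium is required for trabeculae to grow and mature, and failure of the wall to compact is the defect called noncompaction. Nppa encodes atrial natriuretic peptide and Nppb its relative, B-type natriuretic peptide. Both are secreted by fetal cardiomyocytes, Nppa in the embryonic ventricle mainly by trabecular ones. Gja5 encodes connexin 40, a gap junction protein of trabeculae, of the conduction system that forms from them and of arterial endothelium. Cited1 encodes a coregulator of transcription, Cpne5 a calcium-dependent membrane-binding protein, Smpx a small protein of striated muscle, Etv1 an ETS transcription factor of fast-conducting myocardium, and Adm the vasoactive peptide adrenomedullin.

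The 250 bases before the RefSeq start (build GRCm38.p6, read 5′ to 3′ on the gene's strand) are shown for Nppa, Nppb and Gja5, because Nppa and Gja5 are the members that fell most and Nppb is the gene next to Nppa. They lie at chr4:148000472-148000721, chr4:147985650-147985899 and chr3:97032152-97032401, all on the + strand. Capitals mark matches, on either strand, to short motifs. The letters searched were TATAAA for the box that positions the polymerase, called the TATA box, and GATAA for GATA factors. For T-box factors they were TCACAC, and for the homeodomain factors of the Nkx2 group AAGTG. For Rbpj, the DNA-binding partner of Notch, they were TGGGAA, and for the Tead factors of the Hippo pathway GGAATG. No letters of 1 motif overlapped another in these 3 windows.
Nppa: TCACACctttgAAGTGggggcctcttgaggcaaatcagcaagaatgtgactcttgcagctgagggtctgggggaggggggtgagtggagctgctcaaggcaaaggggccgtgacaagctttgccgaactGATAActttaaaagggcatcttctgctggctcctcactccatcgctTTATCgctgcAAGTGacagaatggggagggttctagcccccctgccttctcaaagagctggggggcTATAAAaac
Nppb: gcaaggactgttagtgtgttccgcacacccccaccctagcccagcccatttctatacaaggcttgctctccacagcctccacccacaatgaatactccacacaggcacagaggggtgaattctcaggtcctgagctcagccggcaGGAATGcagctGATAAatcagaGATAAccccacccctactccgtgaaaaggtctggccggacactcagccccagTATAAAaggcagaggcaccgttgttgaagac
Gja5: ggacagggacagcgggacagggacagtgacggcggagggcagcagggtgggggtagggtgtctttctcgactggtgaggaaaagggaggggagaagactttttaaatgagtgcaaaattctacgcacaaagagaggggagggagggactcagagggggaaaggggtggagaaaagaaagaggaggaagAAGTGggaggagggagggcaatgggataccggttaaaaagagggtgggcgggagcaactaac
Nppa held 1 match for the TATA box, 2 for GATA factors, 1 for T-box factors and 2 for Nkx2 factors. Nppb held 1 for the TATA box, 2 for GATA factors and 1 for Tead factors, and Gja5 held 1 for Nkx2 factors. Among all 32851 RefSeq windows of this length, 12.4% hold the letters for the TATA box, 22.6% those for GATA factors, 12.3% for T-box factors, 40.7% for Nkx2 factors, 21.6% for Rbpj and 12.6% for Tead factors. Nppa and Nppb thus share the TATA box and GATA factor letters, whereas the T-box and Nkx2 letters stand in the window of Nppa and not in that of Nppb. These matches are descriptions of the letters and not binding sites, and no binding was measured. RefSeq lists 3 starts for Cited1 and 2 for Etv1, and which start these hearts use was not tested.

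Total counts recovered from the table ran from 6307634 to 11506082 per library, and 3 counts, taken as the floor, correspond to 0.265 to 0.472 CPM (counts per 1000000 counts of the normalized library). Mib1, the targeted gene (ENSMUSG00000024294), stood at 106, 103, 95.3 and 96.3 CPM in the mutant libraries and at 150, 166, 160 and 167 CPM in wild type. The groups did not overlap, and Mib1 fell by 0.68 ± 0.06 on the log2 scale (SE; limma adjusted p = 8.62e-06). The ventricles also hold cells in which this Cre is not active, and their part in the remaining Mib1 level was not tested. Of 13740 genes tested, limma called 308 (2.24%; adjusted p below 0.05), of which 136 stood higher and 172 lower. That number was 183 without mutant replicate 2, 146, 147 and 161 without wild-type replicates 1, 2 and 3, and 477 without mutant replicate 3. The summed level of 6 general cardiomyocyte markers was 26841 to 29552 CPM in mutants and 27562 to 31343 CPM in wild type, with none called. The 4 ventricular markers (Myl2, Myl3, Irx4 and Myh7) summed to 21693 to 23672 and 22680 to 25558 CPM, and none was called. Myh7, which is in both lists, averaged 16057 CPM in mutants and 16560 CPM in wild type, so both sums mainly follow it. Tnnt2 and Myl2, at −0.21 and −0.17 on the log2 scale, were lower without overlap of the groups, as were 4.63% of all genes tested. For the other markers the groups overlapped. Of the 6 general markers 3 lay below 0, and of the 4 ventricular ones 3, against 49.7% of all genes tested.

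Nppa, Gja5 and Cited1 fell in the mutant ventricles, by 3.01-fold, 2.72-fold and 1.99-fold, and no wild-type library came near a mutant one for any of them. The other 5 members did not pass the test. Nppb and Cpne5 stood lower by 0.41 and 0.37 on the log2 scale, and Adm, Etv1 and Smpx within 0.17 of 0. Against 3 of 8 members called lower, 1.25% of all genes tested were called lower, and against 0 called higher, 0.99% were. The groups did not overlap for 4 members, Cpne5 with the 3 called, all lower in mutants, against 4.63% of all genes in that direction, 4.26% in the other and 8.89% in either. An unadjusted p under 0.05 was reached by 5 of the 8 and by 14.8% of all genes. All 8 members lay below 0, as did 49.7% of all genes tested. The median was −0.39 for the members and 0.000921 for all genes. Because the members were chosen with earlier results of these data known, their counts are not independent support for a direction. Because the libraries are bulk tissue, fewer trabecular cells and less RNA per trabecular cell cannot be told apart.

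**Figure D1:**
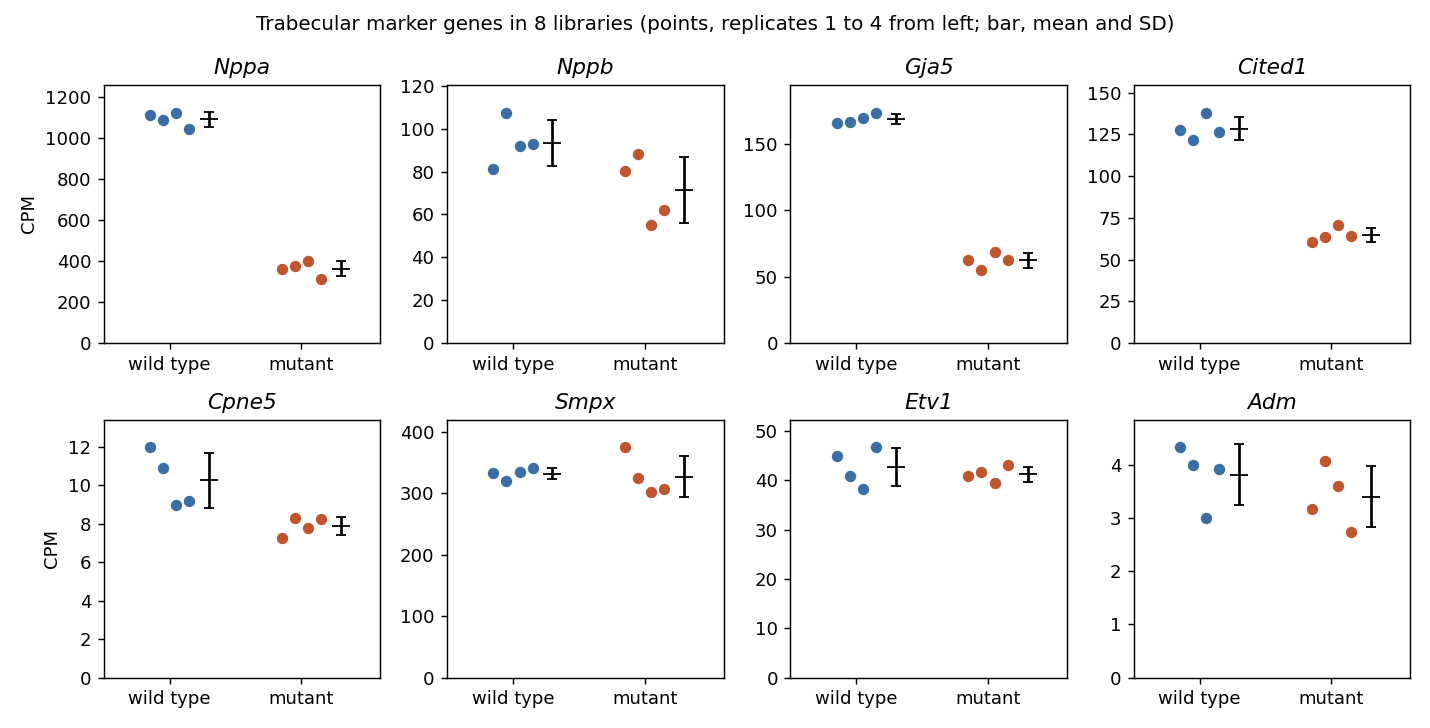
Level of each of the 8 genes (y axis, CPM from 0; x axis, genotype) in 4 wild-type (blue) and 4 mutant (orange) libraries, with points for replicates 1 to 4 from left and a bar for mean and SD. Nppa, Gja5 and Cited1 separate fully, Cpne5 separates narrowly, and the groups overlap for Nppb, Smpx, Etv1 and Adm.

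Nppa (ENSMUSG00000041616) was read at 1110, 1085, 1123 and 1041 CPM in wild-type replicates 1 to 4 and at 358, 376, 398 and 314 CPM in mutant replicates 1 to 4. The highest mutant library thus stood below the lowest wild-type library by more than the whole range of either group. The mean fell from 1089 ± 36.1 to 362 ± 35.9 CPM (SD, n = 4), a log2 difference of −1.6 ± 0.07 (SE; limma adjusted p = 6.86e-09). The value rests on 7129 to 9770 counts per wild-type library and 2517 to 4062 per mutant library. Among the 13740 genes tested, 22 had a more negative difference. The relative spread between mutant libraries, with a coefficient of variation (CV) of 9.93%, was wider than the 1.84% that counting alone gives, and so was that of wild type, 3.31% against 1.11%.

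Nppb (ENSMUSG00000029019), the other natriuretic peptide gene, was read at 81.1, 108, 92.0 and 92.9 CPM in wild type and at 80.1, 88.0, 54.9 and 62.2 CPM in the mutants. Mutant replicates 1 and 2 lay within or next to the wild-type range, and mutant replicates 3 and 4 lay well below it. The means were 93.4 ± 10.9 and 71.3 ± 15.4 CPM (SD, n = 4), the log2 difference −0.41 ± 0.13 (SE), and the limma adjusted p 0.132. Its 95% interval ran from 0.624 to 0.911 of the wild-type level. With 367 to 969 counts per library, counting accounts for a CV of 4.26% in mutants, against 21.6% observed, the widest relative spread of any member in either group. Mutant replicate 3 had the lowest Nppb level and the highest Nppa level of the 4 mutant libraries.

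Gja5 (ENSMUSG00000057123) was read at 166, 166, 170 and 174 CPM in wild type, a CV of 2.17%, and at 62.2, 54.8, 68.8 and 62.9 CPM in the mutants. The wild-type libraries lay close together, and every mutant library lay far below them. The mean fell from 169 ± 3.67 to 62.2 ± 5.74 CPM (SD, n = 4), with a log2 difference of −1.45 ± 0.06 (SE; limma adjusted p = 1.54e-08). Gja5 was the 36th most negative difference of the 13740. Counts per library were 1079 to 1498 in wild type and 431 to 706 in mutants.

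Cited1 (ENSMUSG00000051159) was read at 127, 122, 138 and 127 CPM in wild type and at 60.4, 63.7, 70.6 and 64.0 CPM in the mutants. The groups lay far apart, and within each group replicate 3 was the highest. The mean fell from 128 ± 6.93 to 64.7 ± 4.28 CPM (SD, n = 4), with a log2 difference of −0.99 ± 0.06 (SE; limma adjusted p = 4.64e-07). The mutant CV was 6.62%, against 4.34% from counting alone.

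Cpne5 (ENSMUSG00000024008) was read at 11.96, 10.9, 8.98 and 9.17 CPM in wild type and at 7.23, 8.27, 7.78 and 8.22 CPM in the mutants. The highest mutant library, replicate 2, stood just under the lowest wild-type library, replicate 3. The means were 10.2 ± 1.43 and 7.88 ± 0.483 CPM (SD, n = 4), and limma gave −0.37 ± 0.13 on the log2 scale (SE; adjusted p = 0.176). With 52 to 98 counts per library, counting alone gives a CV of 11.5% in wild type and 12.4% in mutants, and the observed 13.9% and 6.14% are of that order. The 95% interval ran from 0.64 to 0.935 of the wild-type level.

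The other 3 members showed no separation. Smpx (ENSMUSG00000041476) was read at 333, 320, 335 and 342 CPM in wild type and at 375, 325, 302 and 307 CPM in the mutants, so that mutant replicate 1 was the highest and mutant replicate 3 the lowest of all 8. Smpx stood at −0.03 ± 0.06 on the log2 scale (SE; limma adjusted p = 0.895), with a 95% interval of 0.893 to 1.08 of the wild-type level, and the sign turned to 0.01 without mutant replicate 3 and to 0.0018 without mutant replicate 4. Etv1 (ENSMUSG00000004151) was read at 45.0, 41.0, 38.3 and 46.7 CPM in wild type and at 40.8, 41.7, 39.5 and 43.1 CPM in the mutants. All mutant values of Etv1 lay inside the wild-type range, with a log2 difference of −0.05 ± 0.07 (SE; limma adjusted p = 0.827) and an interval of 0.869 to 1.08. Adm (ENSMUSG00000030790) was read at 4.32, 3.996, 2.99 and 3.91 CPM in wild type and at 3.17, 4.07, 3.59 and 2.74 CPM in the mutants. Adm rests on 19 to 36 counts per library, it stood at −0.17 ± 0.2 on the log2 scale (SE; limma adjusted p = 0.746), and its interval of 0.666 to 1.19 is the widest of the 8. The intervals of Smpx and Etv1 leave no room for a fall of the size seen for Cited1, and that of Adm does not reach it either.

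**Figure D2:**
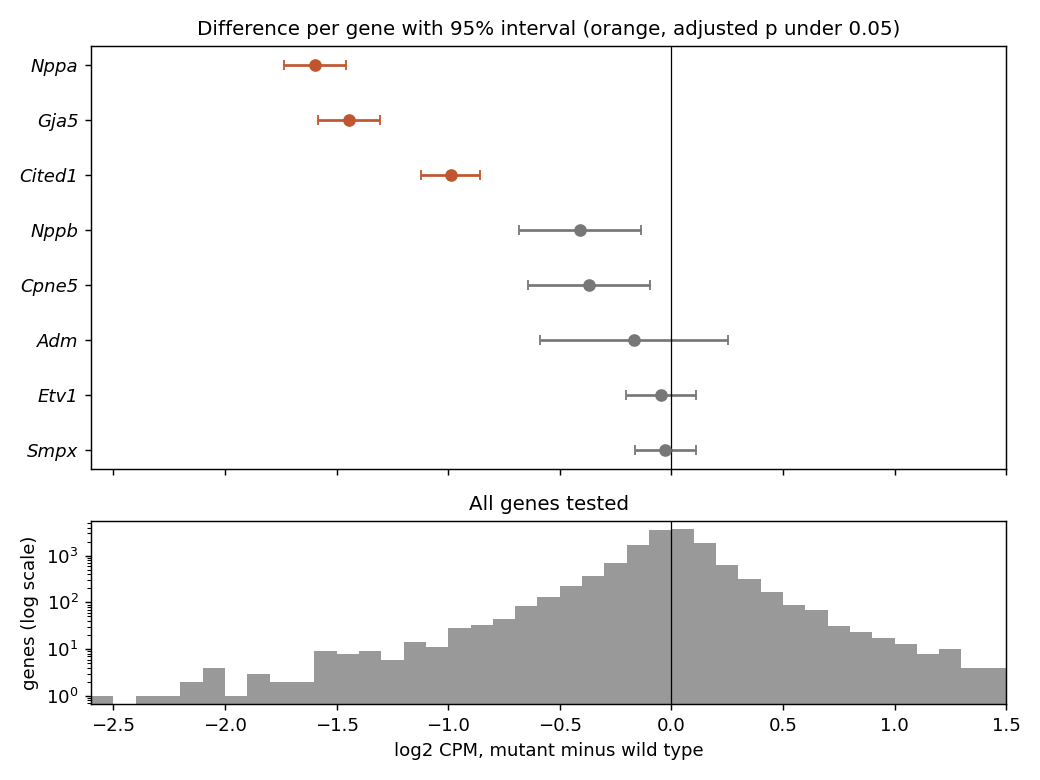
Log2 difference in CPM, mutant minus wild type (x axis), for each member with its 95% interval from limma (top), above the distribution of all 13740 genes tested (bottom, number of genes on a log scale, with the most extreme genes outside the axis). Nppa, Gja5 and Cited1 lie at −1.6, −1.45 and −0.99 in the thin left tail, and the other 5 lie between −0.41 and −0.03.

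Per kilobase of annotated exon, the members spanned a wide range in wild type. Nppa stood at 1260 ± 41.7 CPM per kb (SD, n = 4), the 24th highest level of 13428 genes with a length, followed by Smpx at 146 ± 4.04, Nppb at 120 ± 13.9, Cited1 at 73.2 ± 3.95 and Gja5 at 29.4 ± 0.639 CPM per kb. Etv1 at 3.21 ± 0.287, Adm at 2.35 ± 0.353 and Cpne5 at 0.755 ± 0.105 CPM per kb came last. The order was the same in the mutants, and in neither group did the ranges of neighbours in it overlap. In mutants Nppa was still the highest, at 418 ± 41.5 CPM per kb, but 79th of the 13428 genes, and Gja5 moved from place 1496 to 4270 at 10.8 ± 0.999 CPM per kb. Cited1 moved from place 556 to 1141, while Smpx went from 264 to 254. The lengths are the union of all exons in GENCODE M21, which makes the levels of Etv1 and Cpne5, with 13296 and 13571 bases, low estimates where shorter transcripts are used.

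No wild-type or mutant library was highest or lowest throughout. Within the mutants, replicates 2 and 3 were each the highest for 3 members, and replicate 3 was also the lowest for 3. Within wild type, replicate 4 was the highest for 3 members and replicate 3 the lowest for 3. Summed over the 8 members, levels came to 987, 962, 945 and 864 CPM in mutant replicates 1 to 4, and to 1878, 1856, 1908 and 1836 CPM in the 4 controls. Nppa made up 56.7% to 59.1% of this sum in wild type and 36.3% to 42.1% in the mutants, so the sum mainly follows Nppa.

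Ratios of 2 genes within a library, which do not depend on scaling between libraries, were compared for 5 pairs. The test was the exact two-sided permutation test over the 35 distinct splits, whose smallest p is 0.0286. The pairs were built on members chosen with earlier results of these data known. Nppa, Gja5 and Cited1 had fallen without overlap, while their partners Nppb, Gja1 and Cited2 were not called. The p values of these pairs thus largely restate the falls of single genes and are not separate support. Nppa and Nppb changed by different amounts. The log2 ratio of Nppa to Nppb was 3.77, 3.33, 3.61 and 3.48 in wild type and 2.16, 2.09, 2.86 and 2.33 in the mutants. All mutant libraries lay below all wild-type libraries, with a difference of −1.19 ± 0.2 (SE; exact permutation p adjusted over the 5 pairs = 0.0357). Without wild-type replicate 1 the difference was −1.11 and the adjusted exact permutation p 0.0714.

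Gja5 was compared with Gja1, which encodes connexin 43, the main connexin of working myocardium. The log2 ratio of Gja5 to Gja1 was −1.92, −2.01, −1.91 and −1.94 in wild type and −3.53, −3.82, −3.19 and −3.43 in the mutants, a difference of −1.54 ± 0.13 (SE; adjusted exact permutation p = 0.0357). Counted in CPM, Gja5 stood at 0.26 of Gja1 in wild type and at 0.0889 in mutants. Gja1 itself stood at 651 ± 20.5 and 700 ± 61.5 CPM (SD, n = 4) and was not called (limma adjusted p = 0.479).

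Cited1 was compared with its family member Cited2. Their log2 ratio was 1.71, 1.85, 1.99 and 1.96 in wild type and 1.06, 1.02, 1.13 and 0.83 in the mutants, a difference of −0.87 ± 0.09 (SE; adjusted exact permutation p = 0.0357). Cited2 stood at 34.9 ± 2.76 and 32.1 ± 2.95 CPM (SD, n = 4) and was not called (limma adjusted p = 0.552).

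Among the members that fell, Gja5 changed more than Cited1, while a difference between Nppa and Gja5 was not detected. The log2 ratio of Gja5 to Cited1 was 0.38, 0.45, 0.3 and 0.46 in wild type and 0.04, −0.22, −0.04 and −0.03 in the mutants, a difference of −0.46 ± 0.07 (SE; adjusted exact permutation p = 0.0357). The log2 ratio of Nppa to Gja5 was 2.74, 2.7, 2.72 and 2.58 in wild type and 2.52, 2.78, 2.53 and 2.32 in the mutants. Here mutant replicate 2 was the highest of all 8 libraries, and the difference was −0.15 ± 0.1 (SE; adjusted exact permutation p = 0.229).

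**Figure D3:**
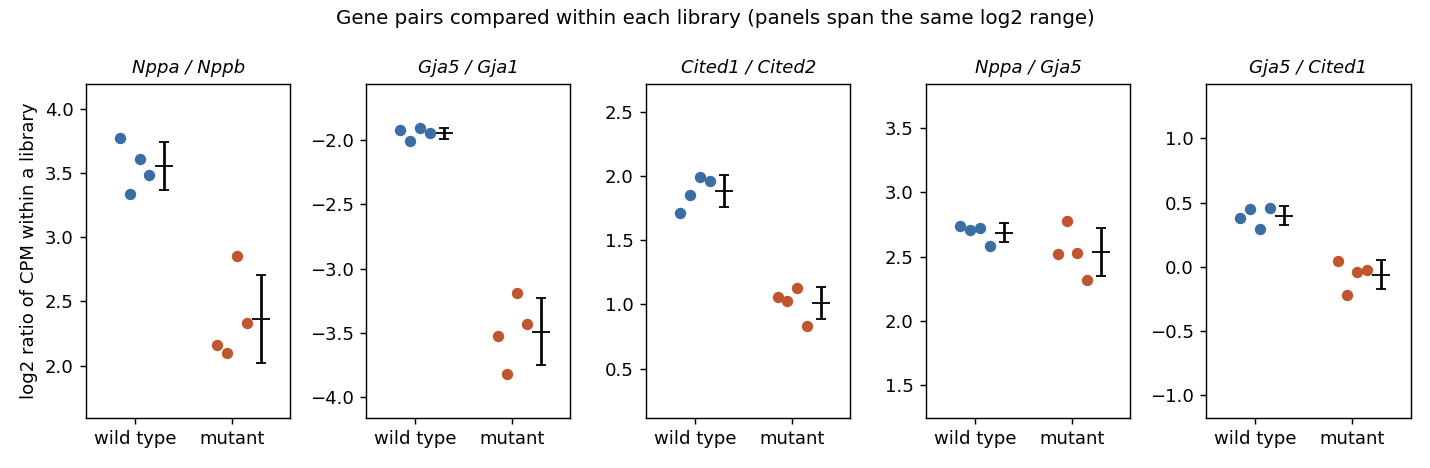
Log2 ratio of CPM of 2 genes within a library (y axis, each panel spanning the same log2 range) in wild type (blue) and mutants (orange), with points for replicates 1 to 4 from left and a bar for mean and SD. Groups separate for Nppa over Nppb, Gja5 over Gja1, Cited1 over Cited2 and Gja5 over Cited1, and overlap for Nppa over Gja5.

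Genes were ranked by how near their level over the 8 libraries, centred on the gene's own mean, lay to those of the 3 fallen members. The measure was the root mean square (RMS) difference, among 10739 genes with a mean of at least 5 CPM. Genes without a symbol, with a clone or predicted-gene name, or of the mitochondrial genome were left out. Nearest to Nppa was Gja5, at an RMS of 0.14 on the log2 scale, then Angpt1 at 0.16 and Slit2 at 0.21. Nearest to Gja5 were Nppa at 0.14, Slit2 at 0.16 and Angpt1 at 0.19. Cited1 came 4th for both Nppa and Gja5, at 0.32 and 0.24. In the other direction, Gja5 came only 38th and Nppa 107th for Cited1. Nearest to Cited1 were Pla2g7 at 0.07, Armh4 at 0.08 and Kcnk3 at 0.09, which fell from 22.3 to 11.5, 87.0 to 46.2 and 71.0 to 37.7 CPM (limma adjusted p = 0.000116, 2.5e-06 and 2.33e-06). These genes were picked for profiles like that of Cited1, so their falls and p values follow from the choice and are not support. Nppb came 207th for Nppa, behind Cpne5 at place 187. The measure follows the size of the group difference, so it places genes with differences of like size near each other.

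Of 9 other genes of trabeculae, 7 fell and 0 rose, with a median of −0.85 against 0.000921 for all genes, while 1.25% of all genes tested were called lower. This list and those that follow were written with these results known, so their counts are not independent support for a direction. Bmp10, which encodes a bone morphogenetic protein that trabecular cells secrete, fell by 2.29 on the log2 scale, from 41.4 ± 2.33 to 8.44 ± 0.559 CPM (SD, n = 4). Angpt1, which encodes the myocardial ligand angiopoietin 1, fell from 44.1 ± 5.52 to 12.8 ± 0.923 CPM, and the guidance ligand gene Slit2 from 152 ± 13 to 64.5 ± 1.99 CPM. Sema3a, Irx1, Irx2 and Cdkn1c were the other falls, and the last 3 were each no longer called in 5 of the 8 leave-one-out fits, in which 4 to 7 of the 9 were called lower. Irx3 and Irx5, at 0.16 and −0.1 on the log2 scale, were not called, so these genes, like the members, divide into those that fell and those that were not called.

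In the ventricular conduction list the calls went both ways, with 2 of 8 tested lower and 3 higher and a median of 0.11, where 1.25% of all genes tested were called lower and 0.99% higher. Besides Slit2, Hcn4, a pacemaker channel gene, was lower, but kept the call only without mutant replicate 4. Kcne1, a potassium channel subunit gene, rose from 102 ± 3.38 to 182 ± 3.13 CPM, and Id2, an inhibitor of basic helix-loop-helix factors, from 64.5 ± 5.92 to 103 ± 6.79 CPM (SD, n = 4). Tbx3, a repressor of Nppa and Gja5 in conduction tissue, was higher by 0.5 ± 0.12 on the log2 scale (SE; limma adjusted p = 0.0492), a call kept only without mutant replicate 1. Gja5 therefore moved opposite to Kcne1 and Id2 of the same list. In the compact layer list, 3 of 8 rose, among them Tbx20 and Fzd2, and Ntn1 fell, with a median of 0.16, against 0.99% of all genes called higher and 1.25% lower, and 1 to 4 were called higher with a library left out. Fzd2 lost its call without wild-type replicate 1 or 2.

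The natriuretic peptide list held 8 tested genes. Their products cleave precursors (Corin, Furin, Pcsk6), bind 1 or more peptides of the family (Npr1, Npr2, Npr3), degrade peptides (Mme) or act downstream of cyclic GMP (Prkg1). Of these 8 genes 2 fell, against 1.25% of all genes tested, with a median of −0.11. Npr1, the receptor of the Nppa and Nppb peptides that makes cyclic GMP, fell from 26.4 ± 1.58 to 19.5 ± 1.79 CPM (SD, n = 4). Npr1 lost its call without wild-type replicate 1, 3 or 4. Npr3, the clearance receptor and a marker of endocardium, fell from 169 ± 16.5 to 122 ± 7.98 CPM. Corin, which encodes the protease that cleaves the precursor of atrial natriuretic peptide, stood at 0.02 on the log2 scale and was not called. Of 6 genes of adrenomedullin processing and reception 3 fell, against 1.25% of all genes, with a median of −0.37. Pam, which encodes the enzyme that amidates peptide hormones such as adrenomedullin, fell from 1730 ± 38.7 to 1265 ± 87.8 CPM. The receptor genes Ramp2 and Calcrl fell by 0.37 and 0.36 on the log2 scale, Calcrl keeping its call only without mutant replicate 1 or 3. Levels of Adm itself, at under 5 CPM, did not pass the test.

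**Figure D4:**
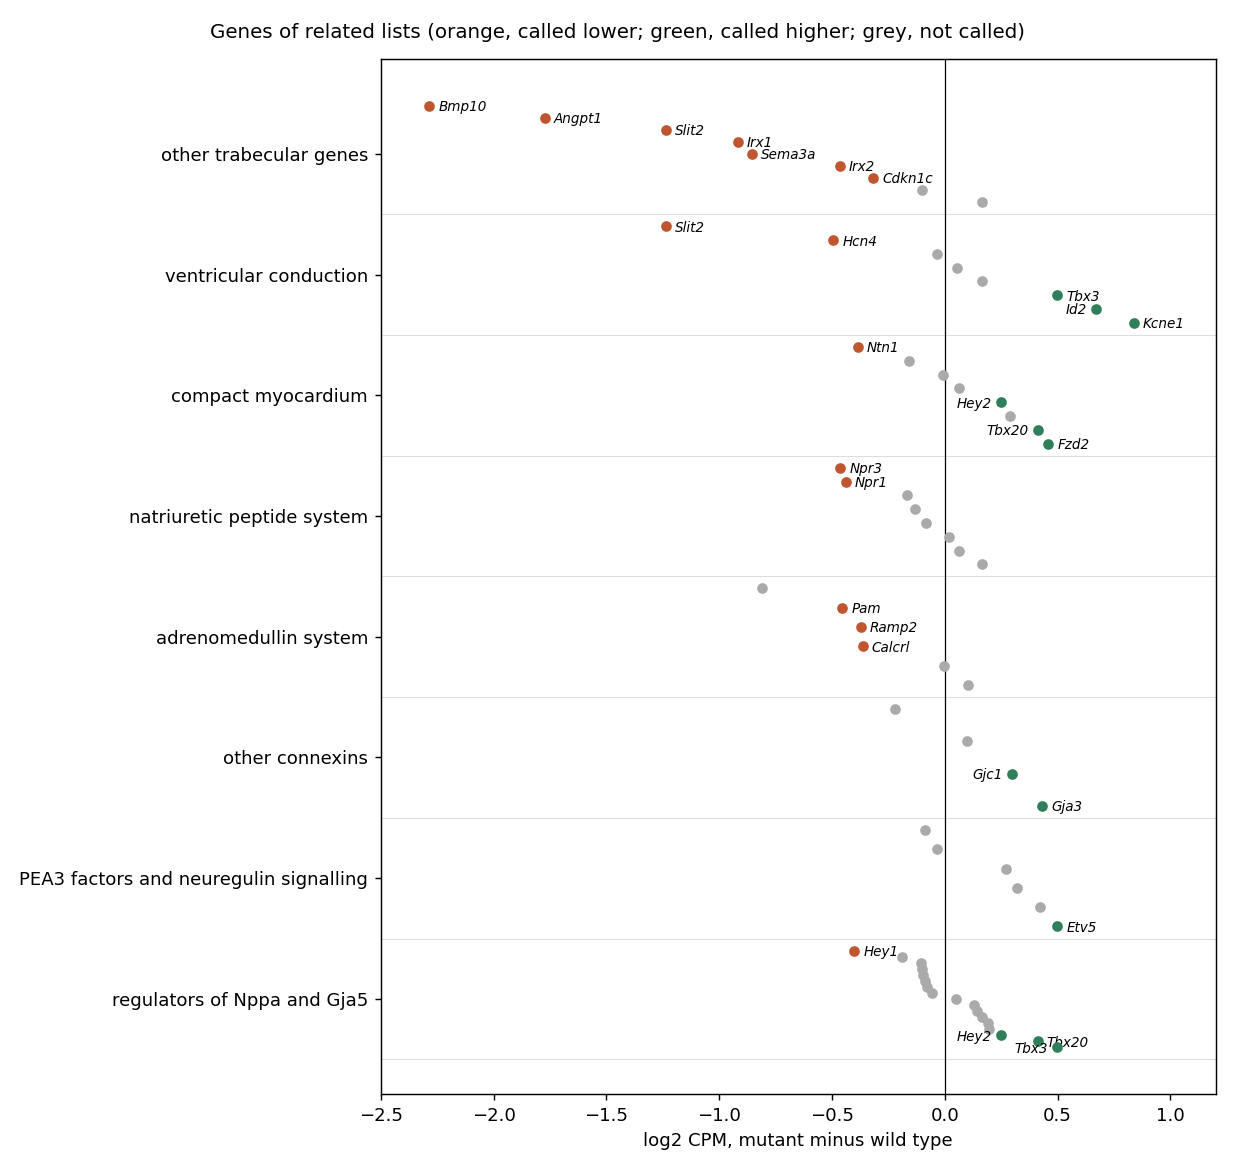
Log2 difference in CPM, mutant minus wild type (x axis), for each tested gene (point) of 8 related lists (rows), with the genes called by limma named. The other trabecular genes extend to −2.29 (Bmp10), the conduction list runs from −1.23 (Slit2) to 0.84 (Kcne1), and the connexin calls are higher.

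Of 4 other connexin genes tested, 2 were called higher and 0 lower, with a median of 0.2, against 0.99% and 1.25% of all genes. The number called higher was 1 in each of the 8 leave-one-out fits. Gjc1, which encodes connexin 45, rose from 75.5 ± 1.83 to 92.9 ± 4.67 CPM (SD, n = 4), and Gja3 was higher by 0.43 ± 0.1 on the log2 scale (SE; limma adjusted p = 0.0496), a call lost whichever library was left out. Gja4, an arterial connexin gene, stood at −0.22 and was not called. Within the family, Gja5 was thus the tested gene that fell. Of 6 genes around Etv1, the related factor gene Etv5 rose from 25.8 ± 2.96 to 36.5 ± 4.34 CPM, a call lost without mutant replicate 2 or wild-type replicate 1, 2 or 3, and 0 fell, with a median of 0.3, against 0.99% of all genes called higher. With a library left out, 0 to 3 of the 6 were called higher. Etv4 and Erbb4 stood at 0.42 and 0.32 on the log2 scale and were not called, and the neuregulin gene Nrg1 stood at 0.27 with about 2 CPM in either group.

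Of 17 genes known to regulate Nppa or Gja5, 3 were called higher and 1 lower, with a median of 0.05, against 0.99% and 1.25% of all genes. With a library left out, 1 to 4 were called higher and 0 to 1 lower. Tbx20, a T-box factor, rose from 311 ± 6.94 to 414 ± 27.9 CPM (SD, n = 4), and the Notch target and repressor gene Hey2 from 165 ± 7.21 to 196 ± 9.78 CPM. Hey1, a related Notch target, fell by 0.4 on the log2 scale. Hey2 lost its call without mutant replicate 2 or wild-type replicate 1, 2 or 3, and Hey1 kept its call only without mutant replicate 3 or wild-type replicate 3. Tbx5, Nkx2-5 and Gata4, which activate both genes, stood at −0.1, −0.08 and 0.13 and were not called. In 3 further lists none was called. Of the 4 Cited genes and partners tested, Cited4 had the smallest p, at −0.43 on the log2 scale. Of 4 other copines it was Cpne3, at 0.17, and of 6 calmodulin genes and small calmodulin-binding proteins Pcp4l1, a relative of Pcp4, at −0.2. In the list of 6 costamere and stretch genes 1 fell and 0 rose, against 1.25% and 0.99% of all genes. Of the 6, 4 lay below 0, against 49.7% of all genes tested, with a median of −0.1. The gene called was Xirp2, the least abundant of the list, which fell from 3.36 ± 0.268 to 1.3 ± 0.485 CPM. Xirp2 lost its call without any 1 of the 4 wild-type libraries. Ankrd1 went the other way, from 765 ± 41.8 to 976 ± 145 CPM (SD, n = 4). The groups did not overlap for Ankrd1, but it was not called (limma adjusted p = 0.0606).

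Markers of other cell types were read in the same libraries. Nppa, Gja5 and Cited1 are also expressed in atria. The 8 atrial markers summed to 1449 to 1735 CPM in mutants and 1450 to 1605 CPM in wild type, but Myl4 and Myl7, atrial myosin light chain genes, made up 91.0% to 92.6% of each sum. Without these genes the sums were 111 to 137 and 113 to 143 CPM. Of the 8 markers 6 lay below 0, against 49.7% of all genes tested, with a median of −0.25. Among all genes tested, 1.25% were called lower and 0.99% higher. Kcnj3, at −0.67 on the log2 scale, was called lower in every leave-one-out fit, and Myl7, at 0.37, was called higher but kept the call only without mutant replicate 1 or 4. Mybphl and Nr2f2, at −0.93 and −0.31, were not called although their groups did not overlap, and Nr2f1 and Sln, at −0.44 and −0.18, overlapped.

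Gja5 is also an arterial gene. The 8 arterial endothelial markers summed to 357 to 441 CPM in mutants and 341 to 373 CPM in wild type, of which Unc5b made up 49.5% to 62.2%. Without Unc5b the other 7 summed to 150 to 180 CPM in mutants and 172 to 182 CPM in wild type. Of the 8, 6 lay below 0, against 49.7% of all genes tested, with a median of −0.14. Among all genes tested, 1.25% were called lower and 0.99% higher. Unc5b was called higher and lost the call in 5 of the 8 leave-one-out fits, and Hey1 was called lower and lost it in 6.

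The 10 pan-endothelial markers summed to 1024 to 1072 CPM in mutants against 1163 to 1210 CPM in wild type. All 10 lay below 0, and the median was −0.2. For this list and the next ones, 49.7% of all genes tested lay below 0 and 1.25% were called lower. Tek and Egfl7 were called lower, and with a library left out the number called ranged from 0 to 2, both genes losing the call without wild-type replicate 1, 2 or 3. The 5 endocardial markers, Npr3 among them, summed to 361 to 380 against 462 to 480 CPM, with 3 called lower in each leave-one-out fit as well and a median of −0.46. Macrophage markers summed to 66.4 to 82.9 against 101 to 116 CPM, with 3 of 8 called lower, 2 to 3 with a library left out, and C1qc lost its call in 6 of those fits. Red blood cell markers summed to 702 to 1129 against 1183 to 1448 CPM, with 2 of 6 tested called lower, 1 to 2 with a library left out, and Hba-a1 lost its call in 6. The 5 epicardial markers summed to 177 to 187 against 168 to 180 CPM with none called. None of these lists' tested markers had a mean of 0. The part of these cell types in the members' values was not tested.

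Positions around the members were examined in the GRCm38 gene order, which is not the build named for these data (mm9), so only neighbours are given. Nppa and Nppb are next to each other among tested genes. Of the 9 nearest tested genes around Nppa that are not members, 0 were called, and of the 10 around Gja5 and the 10 around Cited1 also 0. Of all genes tested 2.24% were called, so 0 among so few is near that share and does not set these neighbours apart. Gm13054, annotated antisense to Nppa with overlapping exons, held 0.0842% to 0.372% as many counts as Nppa, and stood at −0.85 ± 0.41 on the log2 scale (SE; limma adjusted p = 0.361). Gpr89 overlaps Gja5 on the opposite strand and stood at −0.14 ± 0.08 (SE; limma adjusted p = 0.445), at 25.6 and 23.2 CPM. No source used here states whether counting used strand, so reads of these pairs could have been exchanged.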

How the data were processed

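Polyadenylated RNA of 8 pooled ventricle libraries was read from 1 end. Per the submitters' processing notes, the authors used cutadapt 1.2.1, RSEM 1.16, Bowtie2 0.12.7 (as named), limma and edgeR, with build mm9. The deposited values are a score: per tests on the values, log2 CPM with a prior of 0.5 counts, multiplied by a constant per column so that each sums to 1000000. Each constant was found as the step between the 2 lowest distinct values over log2 of 3 and divided out, and 100% of values then gave whole counts (tolerance 0.001). Symbols from the supplied gene name table matched 13428 of 13869 identifiers.

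Groups were compared with limma 3.58.1 (R 4.3.3; lmFit and eBayes with a trend, group as only term) over the 13740 genes whose mean log2 CPM reached 0, two-sided, with Benjamini-Hochberg adjustment over all of them. Calls are at an adjusted p below 0.05. The pipeline was tested on simulated counts. Levels are means of CPM, and log2 differences come from the fit. Folds are ratios of mean CPM. Counting CVs cover counting error only. Intervals are 95% intervals of the fit.

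The members and lists were chosen with earlier results of these data known. Named genes are the members, Mib1, the called genes with the lowest p in a list (at most 3, or the gene with the lowest p where none was called), and the 3 nearest profiles of Nppa, Gja5 and Cited1; any other gene was named after its values were seen. Alternatives covered the pseudocount, filter, scaling, trend, voom weights on the recovered counts, a replicate block and each library left out. Marker sums without their most abundant genes were added after seeing the data.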

Additional observations from a re-analysis of the deposited data

How the results depend on the processing

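Under the 19 alternatives run on the all-gene fit, Nppa, Gja5 and Cited1 were called lower and no other member tested was called (Adm was removed by the filter at a mean of 5 CPM). With each library left out in turn, 3 members were called lower and 0 higher every time. Under those 8 fits the log2 difference ran from −1.64 to −1.53 for Nppa, −1.5 to −1.39 for Gja5, −1.03 to −0.95 for Cited1, −0.52 to −0.29 for Nppb (adjusted p 0.0541 to 0.342) and −0.43 to −0.29 for Cpne5. Smpx ran from −0.0943 to 0.0103, the positive values being 0.0103 without mutant replicate 3 and 0.00178 without mutant replicate 4. The number of all genes called was 308, with 136 higher and 172 lower. It was 179 without the trend (70 higher and 109 lower), and with a library left out it ran from 146 to 477 (64 to 208 higher and 81 to 269 lower), the highest without mutant replicate 3. The cause was not tested. Both groups carry replicate numbers 1 to 4, but same-numbered libraries correlated at −0.038 to 0.1 after removal of group means and 0 of 4 mutant libraries were closest to the control of that number, and pairing was not assumed. With the replicate block, 240 genes were called, and Nppa, Gja5 and Cited1 were among them. The differences of the pairs had ranges of −1.35 to −1.1 (Nppa and Nppb), −1.64 to −1.44 (Gja5 and Gja1), −0.93 to −0.81 (Cited1 and Cited2), −0.23 to −0.08 (Nppa and Gja5) and −0.49 to −0.4 (Gja5 and Cited1) with a library left out. Of these, Nppa against Nppb missed the threshold without wild-type replicate 1 (−1.11). Low counts limit Adm and Cpne5 most.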
